A study of Gossypium herbaceum with 12 samples.

Results

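Leaf RNA of irrigated Vagad was set against leaf RNA of irrigated RAHS-14. Both are accessions of the Old World cotton Gossypium herbaceum. The 3 arrays whose titles name watered plants of the tolerant accession, Vagad, and the 3 whose titles name watered plants of the sensitive accession, RAHS-14, were used, 6 of the 12 arrays of the series. In the study, potted plants of the 2 accessions were kept irrigated or were droughted by withholding water, and leaf RNA of month-old plants, 1 plant per array, was hybridized to the Affymetrix Cotton Genome array, on which each transcript is read by a group of short oligonucleotides called a probe set. The comparison asks how the accessions differed before any drought was applied. The 6 plants compared here were grown in earthen pots in 1 temperature-controlled greenhouse, under normal watering and with no drought or other agent, and the groups were labelled as differing in accession alone. Each accession is represented by 3 plants, so anything these plants shared besides their genotype cannot be told apart from it. In leaf homogenates, fewer cells of a type and less RNA per cell cannot be told apart either.

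Flavonoids are built from phenylalanine by the phenylpropanoid pathway, and chalcone synthase opens the branch that leads to flavonols, condensed tannins and anthocyanins. Osmotin, chitinases and other pathogenesis-related proteins attack fungal membranes and walls, and in many plants they also accumulate under osmotic stress or ethylene. WRKY and AP2/ERF proteins are families of plant transcription factors known for responses to pathogens, wounding and water deficit.

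Median MAS5 signals were 60.8 to 64.6 in Vagad and 66.9 to 74.1 in RAHS-14, so that the deposited Vagad arrays were all slightly dimmer. On control transcripts the 3′ probe sets outshone the 5′ ones, which gauges RNA integrity, and their log2 ratio was 2.57 to 2.82 in Vagad and 2.78 to 2.98 in RAHS-14, so that the groups overlapped, with a mean difference of -0.23 whose part in the results was not tested. Spearman correlations over the probe sets (genes, not replicates) were 0.956 to 0.970 within an accession and 0.948 to 0.958 between them. As a check on the labelled tissue, 9 named probe sets of photosystems and carbon fixation were read in both groups. Only 2 of them exceeded the array median on at least 3 arrays, and a chlorophyll-binding probe set lay at the floor of the scale on all 6. The summed log2 signal of the 9 was 8.75 to 9.996 in Vagad and 8.94 to 9.34 in RAHS-14. Of the 9, 1 was at the floor in all 3 Vagad plants and 3 in all 3 RAHS-14 plants, so most of the leaf markers that carry a name here were dim in both accessions. Of 13 named probe sets of seed, embryo, fibre and flower 5 were tested and none was called. The summed log2 signal of the 13 was 13.55 to 13.65 in Vagad and 13.62 to 13.65 in RAHS-14. Most of that sum came from a fibre protein (GbaAffx.6.1.S1_s_at), at 12.54 to 12.95 over the 6 plants. The rest was largely a probe set named protease inhibitor/seed storage/lipid transfer protein (GhiAffx.44558.1.S1_s_at), at 11.57 to 12.18, so the sum does not speak for the 13 alike.

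Osmotin, a basic chitinase, proteins of disease resistance and enzymes of flavonoid synthesis were higher in irrigated Vagad, whereas a senescence-associated protein, a xyloglucan transferase of the cell wall, a plasma membrane aquaporin and 2 AP2 and ERF transcription factors were lower. That senescence-associated protein and both of these factors exceeded the array median in RAHS-14 plants alone, and were tested for that reason. Another senescence-associated protein was higher in Vagad. Of 12211 probe sets tested, 448 were called, 3.67%, when a limma adjusted p under 0.05 was required together with a change of 2-fold or more. Of these, 231 (1.89%) were higher and 217 (1.78%) lower in Vagad. Without a minimum fold, 1856 probe sets passed, 15.2%. The median difference was 1.46 among those called higher and -1.42 among those called lower, while the median absolute difference of all probe sets tested was 0.20. All differences are Vagad minus RAHS-14 on the log2 scale. In 64 of the called probe sets Vagad was higher by a fold of at least 4, and in 43 it was lower by that much. At a fold of at least 16 the counts were 13 and 8. All 448 kept the 3 Vagad plants apart from the 3 RAHS-14 plants, as did 39.8% of all probe sets tested, 4860 in number. Arrays aligned at their medians instead of by quantiles moved the median of all probe sets by 0.12 on the log2 scale, and the split to 285 higher and 203 lower, while signals as deposited gave 207 higher and 250 lower.

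The share called differed between bands of signal, and in the lowest band the entry rule has a part in it. Of the 197 tested probe sets with a mean log2 signal of 6 or less 27.9% were called, of 3301 between 6 and 8 6.73%, of 4740 between 8 and 10 2.45%, of 3150 between 10 and 12 1.71%, and of 823 above 12 0.122%. To be tested, a probe set had to exceed its array's median, 6.06 on the log2 scale, on at least 3 arrays. With a mean of 6 or less it could enter only if its arrays differed, and 0 of the 197 were above the median on all 6 arrays, so nothing is read from the share called there. Of the called probe sets 251 did so on all 6 arrays, and 197 on fewer, among 1094 such probe sets tested. Those 197 could enter the test through 1 accession alone, and a difference was then built into their entry. For the called probe sets named below as entering through 1 accession alone, no p is given.

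**Figure D1:**
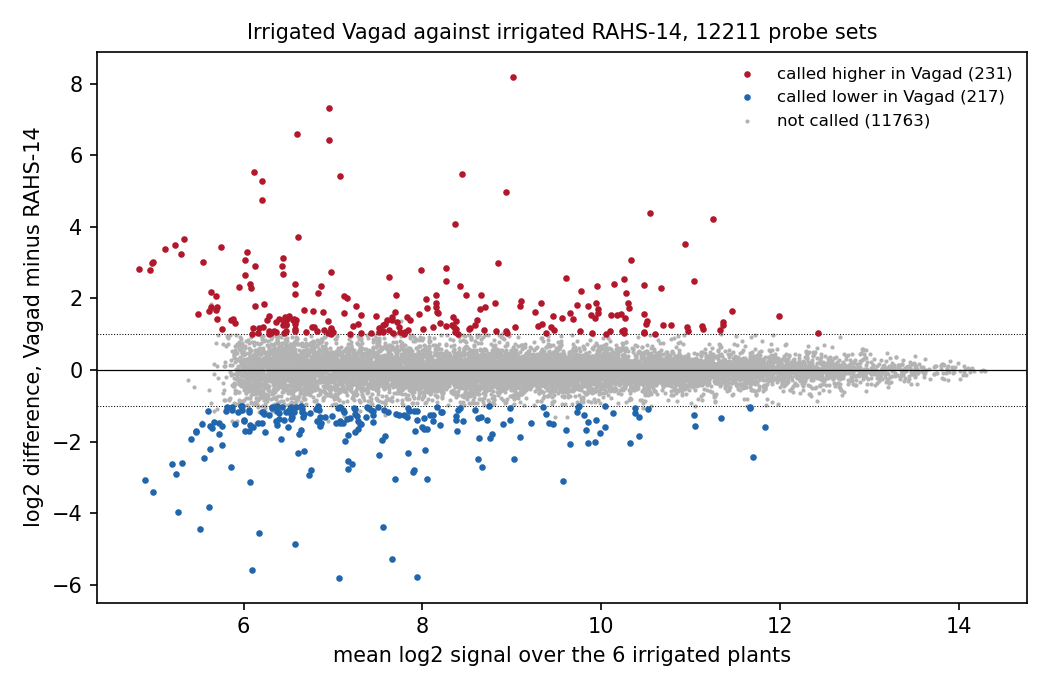
Log2 difference, Vagad minus RAHS-14 (vertical axis), against the mean log2 signal of the 6 irrigated plants (horizontal axis), 1 point for each of 12211 probe sets tested, with dotted lines at a fold of 2. The 231 probe sets called higher in Vagad lie above the upper line and the 217 called lower lie below the lower line, with differences of -5.80 to 8.21.

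Names were read from the annotation text of the study's own supplementary gene lists, which give a functional name, that of the best match in Arabidopsis, to 1252 probe sets. Of 1004 named probe sets tested, 49 were higher and 31 lower in Vagad, 7.97%, against 3.28% of the probe sets with no name. The gene lists below were drawn by keyword from the same annotation text, so 7.97% stands beside their shares as well as 3.67%. The 988 tested probe sets of the study's lists for irrigated plants had been picked on the same 6 arrays for a difference between the accessions, so no count over them is independent evidence. Another 397 came from the study's lists for droughted plants alone. Among tested probe sets that the study listed for irrigated plants 7.49% were called, among those listed for droughted plants alone 12.1%, and among those in no list 3.01%. The remaining 368 called probe sets have no functional name here.

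The widest difference among named probe sets was that of the ubiquitin ligase BIG BROTHER (GraAffx.9185.1.S1_s_at), which in Arabidopsis limits organ size. It is 1 of 15 among the 50 named calls that entered the test through the arrays of 1 accession alone, here those of Vagad. Its log2 signal was 10.24, 10.30 and 9.95 in the Vagad plants, against 3.34, 4.17 and 3.74 in the RAHS-14 plants. The RAHS-14 values were close to the floor of the scale, 3.29, below which signals were not read. The difference was 6.42 (standard error 0.22). A second ubiquitin-protein ligase (Gra.398.2.S1_s_at) had a log2 signal of 6.81, 6.77 and 6.85 in Vagad, against 3.29, 3.29 and 3.72 in RAHS-14. Since 2 of the RAHS-14 plants were at the floor, its difference of 3.37 and its standard error of 0.13 depend on where that floor was set. The other 26 of the 28 tested ubiquitin ligases and F-box proteins, which mark proteins for breakdown, were not called, and the median of the list was 0.11. Of the list 7.14% were called, against 3.67% of all probe sets tested and 7.97% of the named ones. Both calls left the test when any 1 Vagad plant was left out.

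Among proteins of defence, 6 of 19 tested were higher in Vagad and 0 lower, 31.6% against 3.67% of all and 7.97% of the named ones. Of the 19, 7 came from the study's lists for droughted plants alone, and 2 of these were called higher. The rest came from the lists for irrigated plants, picked on the arrays tested here, so the share is not independent evidence. The list median was 0.19 beside 7.30e-05 for all probe sets tested. Osmotin (Ghi.10646.1.S1_s_at), an antifungal protein first found in salt-adapted tobacco cells, had a log2 signal of 12.83, 12.93 and 12.45 in Vagad plants, against 8.43, 8.27 and 8.35 in RAHS-14 plants. Every Vagad plant lay far above every RAHS-14 plant. The difference was 4.39 (standard error 0.14, adjusted p = 1.76e-05), a fold of 21.0. An osmotin-like protein (Ghi.2835.1.S1_s_at) differed by -0.07 and thaumatin by -0.09, and neither was called. Basic chitinase (Ghi.6521.1.S1_at), which cuts the chitin of fungal walls, had 11.80, 11.93 and 11.88 in Vagad, against 8.81, 8.91 and 8.69 in RAHS-14, with no overlap. Its difference was 3.07 (standard error 0.09, adjusted p = 1.41e-05). A chitin-binding pathogenesis-related protein (GhiAffx.25472.1.A1_s_at) followed it, with 11.80, 11.76 and 11.87 in Vagad, against 9.49, 9.50 and 9.57 in RAHS-14.

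A pair of probe sets named for disease resistance were also higher. For one (Ghi.490.1.S1_s_at) the log2 signal was 7.36, 7.67 and 7.74 in Vagad, against 4.89, 4.58 and 4.56 in RAHS-14. The difference was 2.91 (standard error 0.14). This probe set entered the test through the Vagad arrays alone. The other (Ghi.3370.1.A1_at) had 9.49, 9.44 and 9.63 in Vagad, against 6.87, 7.49 and 6.70 in RAHS-14, a difference of 2.497 (standard error 0.20, adjusted p = 6.01e-04). The RAHS-14 plants were spread more widely than the Vagad plants here, without reaching them. The sixth called member, a disease resistance protein (GhiAffx.25024.1.S1_at), was higher by 1.15. Apart from this list, a mannose-binding lectin (GhiAffx.3185.1.S1_at), of a family of sugar-binding proteins, had 11.10, 11.11 and 11.19 in Vagad, against 8.68, 8.73 and 8.93 in RAHS-14, a difference of 2.35 (standard error 0.09, adjusted p = 3.22e-05).

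Proteins with a DC1 domain, a zinc-binding domain rich in cysteine and histidine, had 2 tested probe sets of 1 sequence cluster, and both were higher in Vagad. The log2 signals were 10.86, 10.85 and 10.99 in Vagad, against 8.35, 8.16 and 8.44 in RAHS-14 for the first (Ghi.787.3.S1_s_at). They were 11.61, 11.63 and 11.77 in Vagad, against 9.32, 9.30 and 9.26 in RAHS-14 for the second (Ghi.787.2.S1_s_at). The differences were 2.58 (standard error 0.10, adjusted p = 3.04e-05) and 2.38 (standard error 0.08, adjusted p = 2.30e-05). As probe sets of 1 cluster they may read the same transcript.

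**Figure D2:**
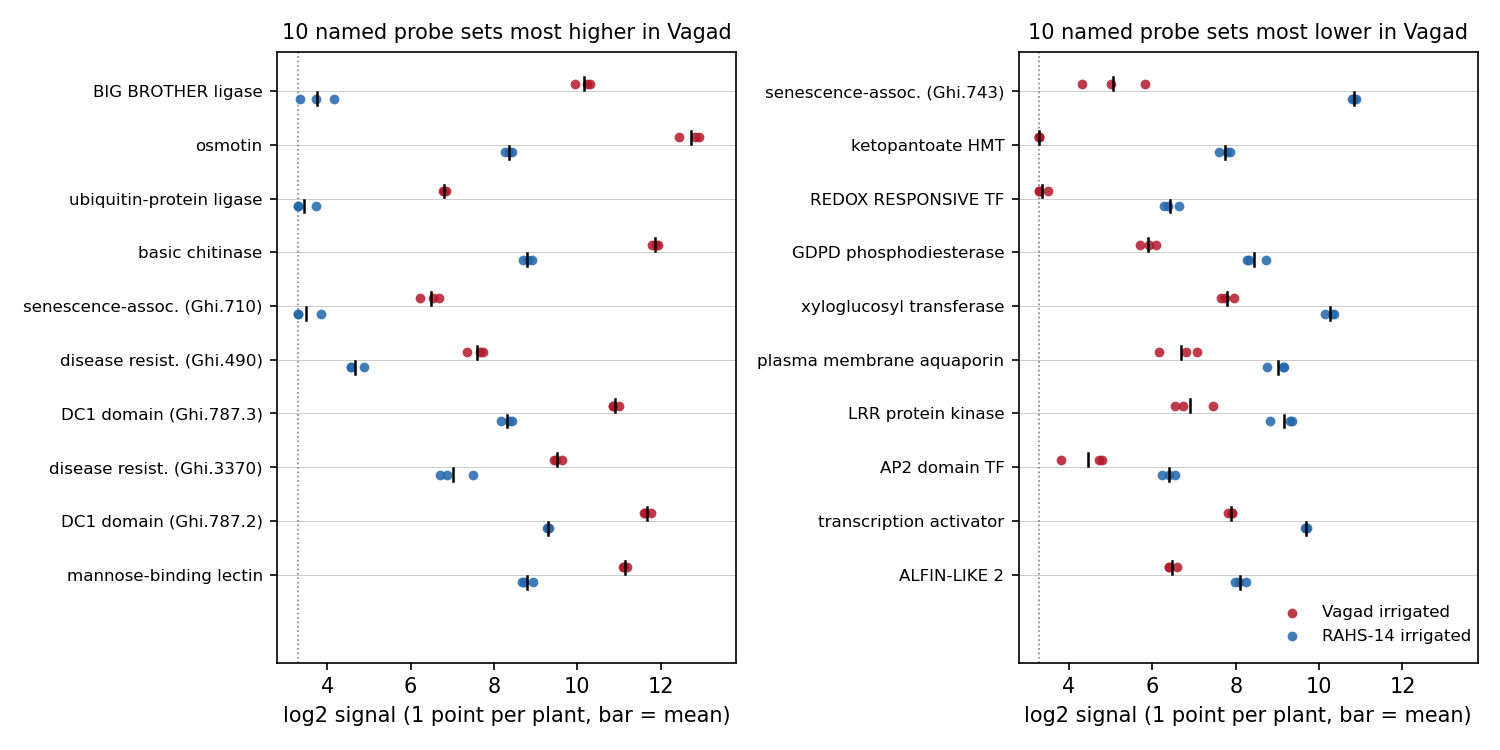
Log2 signal (horizontal axis) of the 10 named probe sets with the largest positive and the 10 with the largest negative difference, 1 point per irrigated plant and a bar at the mean of 3 plants, with Vagad in red above RAHS-14 in blue and a dotted line at the floor of 3.29. In each row the 3 Vagad plants stand apart from the 3 RAHS-14 plants, from BIG BROTHER at 6.42 to the mannose-binding lectin at 2.35 in the left panel and from a senescence-associated protein at -5.80 to ALFIN-LIKE 2 at -1.64 in the right.

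Flavonoid and anthocyanin synthesis was read by 22 tested probe sets, of which 5 were called higher and 0 lower in Vagad, 22.7% against 3.67% of all probe sets tested. In 20 the difference was positive, and the list median was 0.72. At an adjusted p under 0.05 and any fold 18 were higher and 0 lower, where 15.2% of all probe sets passed. All 22 members came from the study's lists for irrigated plants, and 0 from those for droughted plants alone. The study had drawn up those lists from the arrays tested here, so shares above 3.67% and 15.2% were favoured beforehand. They are not independent evidence. Of all tested probe sets in the irrigated lists 7.49% were called. With arrays aligned at their medians 8 were called and with signals as deposited 6, all higher. Chalcone synthase had 6 tested probe sets, all higher in Vagad at an adjusted p under 0.05, of which 3 reached a fold of 2. The most different of them (Gra.207.1.A1_s_at) had a log2 signal of 11.18, 11.32 and 11.24 in Vagad, against 9.38, 9.34 and 9.35 in RAHS-14. Its difference was 1.89 (standard error 0.08, adjusted p = 3.43e-05). The next (Ghi.2516.1.S1_s_at) had 10.58, 10.59 and 10.78 in Vagad, against 9.24, 9.03 and 9.09 in RAHS-14, a difference of 1.53 (standard error 0.10, adjusted p = 2.27e-04). Another (Gra.432.1.S1_s_at) was higher by 1.29. The other 3 differed by 0.58, 0.71 and 0.99. Probe sets of this multigene family can share transcripts, and they are not separate measurements of it.

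Downstream of chalcone synthase, a naringenin 3-dioxygenase (Gra.2794.2.S1_s_at), which makes dihydroflavonols, had a log2 signal of 9.03, 9.21 and 9.38 in Vagad, against 6.92, 7.36 and 7.02 in RAHS-14. The difference of 2.11 (standard error 0.15, adjusted p = 3.19e-04) was the largest of the list, while a second probe set of that name (Ghi.7987.1.S1_s_at) differed by 0.55. Leucocyanidin oxygenase (Ghi.1234.1.S1_s_at), which makes anthocyanidins, was higher by 1.21, with 11.51, 11.51 and 11.69 in Vagad, against 10.31, 10.36 and 10.39 in RAHS-14. Between these steps, a chalcone isomerase family member differed by 0.95, a pair of dihydrokaempferol 4-reductase probe sets by 0.74 and 0.96, and a pair of flavonoid 3′-monooxygenase probe sets by 0.68 and 0.75. These 5 passed at an adjusted p under 0.05 and stayed under a fold of 2. The members with values near 0 were TRANSPARENT TESTA 2, a MYB regulator of tannin synthesis in Arabidopsis, at 0.01, and 3 isoflavone reductases, at -0.21, -0.15 and 0.05.

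Of 20 tested probe sets of phenylpropanoid and lignin synthesis, the steps before the flavonoid branch and beside it, 1 was higher and 0 lower. This is 5%, against 3.67% of all probe sets tested and 7.97% of the named ones. The list median was -0.02, or 0.19 with arrays aligned at their medians, where 3 were called, as they were without RAHS-14 plant 3. Phenylalanine ammonia-lyase, which opens the pathway, had 3 tested probe sets, at -0.07 (standard error 0.12), 0.01 (standard error 0.09) and 0.33 (standard error 0.10), and none was called. Its probe set with the middle value (Ghi.3957.2.S1_at) had a log2 signal of 11.24, 11.36 and 11.46 in Vagad, against 11.38, 11.25 and 11.39 in RAHS-14, so that the groups overlapped. The 7 tested probe sets of cinnamate 4-hydroxylase lay between -0.31 and 0.11. Coumarate-CoA ligase, whose product feeds both lignin and flavonoids, had 4 tested probe sets at 0.56 to 1.13. The highest of them (Ghi.9697.2.S1_s_at) was called, with 8.81, 8.87 and 9.16 in Vagad, against 8.02, 7.44 and 7.97 in RAHS-14 (adjusted p = 0.00862). Without RAHS-14 plant 2 its difference was 0.95, short of a fold of 2.

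Of 40 tested probe sets of lipid metabolism 5 were higher and 1 lower in Vagad, 15% against 3.67% of all, with a median of 0.07. The 5 are lipases and a lipoxygenase, and 3 were called higher without Vagad plant 3. PHOSPHOLIPASE A 2A (GhiAffx.19570.1.S1_at) is an enzyme that frees fatty acids from membranes. It read 8.01, 7.58 and 8.14 on the log2 scale in Vagad, against 5.78, 5.59 and 5.88 in RAHS-14. Its difference was 2.16 (standard error 0.16). It entered the test through the Vagad arrays alone. Lipoxygenase (Ghi.234.1.S1_s_at), which begins the synthesis of jasmonates and other oxylipins, had 10.69, 10.71 and 10.86 in Vagad, against 9.24, 9.09 and 9.15 in RAHS-14, a difference of 1.59 (standard error 0.09, adjusted p = 1.13e-04). A lipase (GhiAffx.21096.2.S1_a_at) was higher by 1.22, and 2 probe sets of 1 triacylglycerol lipase cluster, one named SUGAR-DEPENDENT1, by 1.11 and 1.05. The member called lower was a glycerophosphodiester phosphodiesterase (GhiAffx.10976.1.S1_at), which frees glycerol phosphate from phospholipid remnants. It had 6.08, 5.92 and 5.71 in Vagad, against 8.28, 8.31 and 8.73 in RAHS-14, a difference of -2.54 (standard error 0.16, adjusted p = 1.80e-04).

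Of the hormone pathways, each list had a single called member. This is 9.09% of the ethylene list, 9.09% of the list that holds jasmonate and 5.26% of the auxin list. Of all probe sets tested 3.67% were called, and of the named ones 7.97%. Aminocyclopropane-1-carboxylate oxidase (Ghi.8025.1.S1_s_at), which makes ethylene, had a log2 signal of 10.15, 10.30 and 9.76 in Vagad, against 8.16, 8.16 and 8.07 in RAHS-14. Its difference was 1.94 (standard error 0.15, adjusted p = 4.14e-04), and the other 10 tested ethylene probe sets, receptors and signalling proteins among them, lay between -0.48 and 0.87. TIFY10B (Ghi.9871.1.S1_at), a repressor of jasmonate responses in Arabidopsis, was higher by 1.08 (standard error 0.08), with 11.45, 11.52 and 11.58 in Vagad, against 10.46, 10.37 and 10.48 in RAHS-14. AUXIN RESPONSE FACTOR 9 (Ghi.10569.1.S1_s_at), a transcription factor, was higher by 1.27 (standard error 0.15), with 9.39, 9.31 and 8.94 in Vagad, against 7.78, 7.95 and 8.13 in RAHS-14. Of the 23 tested redox and antioxidant enzymes, a glutathione transferase (Ghi.779.1.S1_at, difference 1.39) and a peroxidase (Ghi.6559.1.S1_at, difference 1.37) were higher and 0 were lower. These calls are 8.70% of the list, against 3.67% of all and 7.97% of the named ones. Among 17 proteases, a cysteine-type endopeptidase (Ghi.8386.1.S1_x_at) was higher by 1.52, the only call, 5.88% of the list.

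Of 6 tested senescence-associated proteins 1 was higher and 1 lower, 33.3% against 3.67% of all. Both were among the largest differences of their direction. Each entered the test through 1 accession, and neither was tested when all 6 arrays had to exceed the median. Ghi.743.1.S1_at had a log2 signal of 5.82, 5.0 and 4.31 in Vagad, against 10.78, 10.89 and 10.84 in RAHS-14. The Vagad plants were spread over more than 1 unit and the RAHS-14 plants lay close together, far above them. The difference was -5.80 (standard error 0.35). The other, Ghi.710.1.S1_s_at, had 6.22, 6.68 and 6.53 in Vagad, against 3.29, 3.86 and 3.29 in RAHS-14, a difference of 3.0. That difference and its standard error of 0.19 depend on the floor, at which 2 RAHS-14 plants lay. SAG101 (Ghi.3440.1.A1_at), a lipase-like protein of defence in Arabidopsis, differed by -0.90 (adjusted p = 0.0128) and was under a fold of 2.

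Of 48 tested cell wall probe sets 4 were lower and 0 higher in Vagad, 8.33% against 3.67% of all and 7.97% of the named ones. The list median of -0.09 turned to 0.07 with arrays aligned at their medians. Without RAHS-14 plant 1, 2 or 3 the list had 2 lower calls. Xyloglucan:xyloglucosyl transferase (Gra.623.2.S1_s_at), which cuts and rejoins xyloglucan chains, had a log2 signal of 7.65, 7.73 and 7.96 in Vagad, against 10.14, 10.35 and 10.31 in RAHS-14. The difference was -2.49 (standard error 0.11, adjusted p = 5.32e-05). A pectinesterase (Ghi.2406.1.A1_s_at), which removes methyl groups from pectin, had 5.42, 5.08 and 4.93 in Vagad, against 6.80, 6.46 and 6.70 in RAHS-14, a difference of -1.51. It entered the test through the RAHS-14 arrays alone. EXPANSIN A 10 (Gra.3004.2.S1_s_at), of a family that loosens walls as cells extend, had 7.81, 7.74 and 7.34 in Vagad, against 8.90, 8.83 and 8.69 in RAHS-14, a difference of -1.18. The remaining one, a hydroxyproline-rich glycoprotein (Ghi.4009.1.A1_at, difference -1.001, adjusted p = 0.0335), lay at the fold threshold and was lost when any plant but Vagad plant 3 was left out. Beta-galactosidase, which removes galactose from wall polymers, had 11 tested probe sets, none called, at -0.21 to 0.75. The 2 highest (Ghi.7994.2.S1_at and Ghi.7694.1.S1_at) had adjusted p of 0.00242 and 0.00577 at folds of 1.68 and 1.65.

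**Figure D3:**
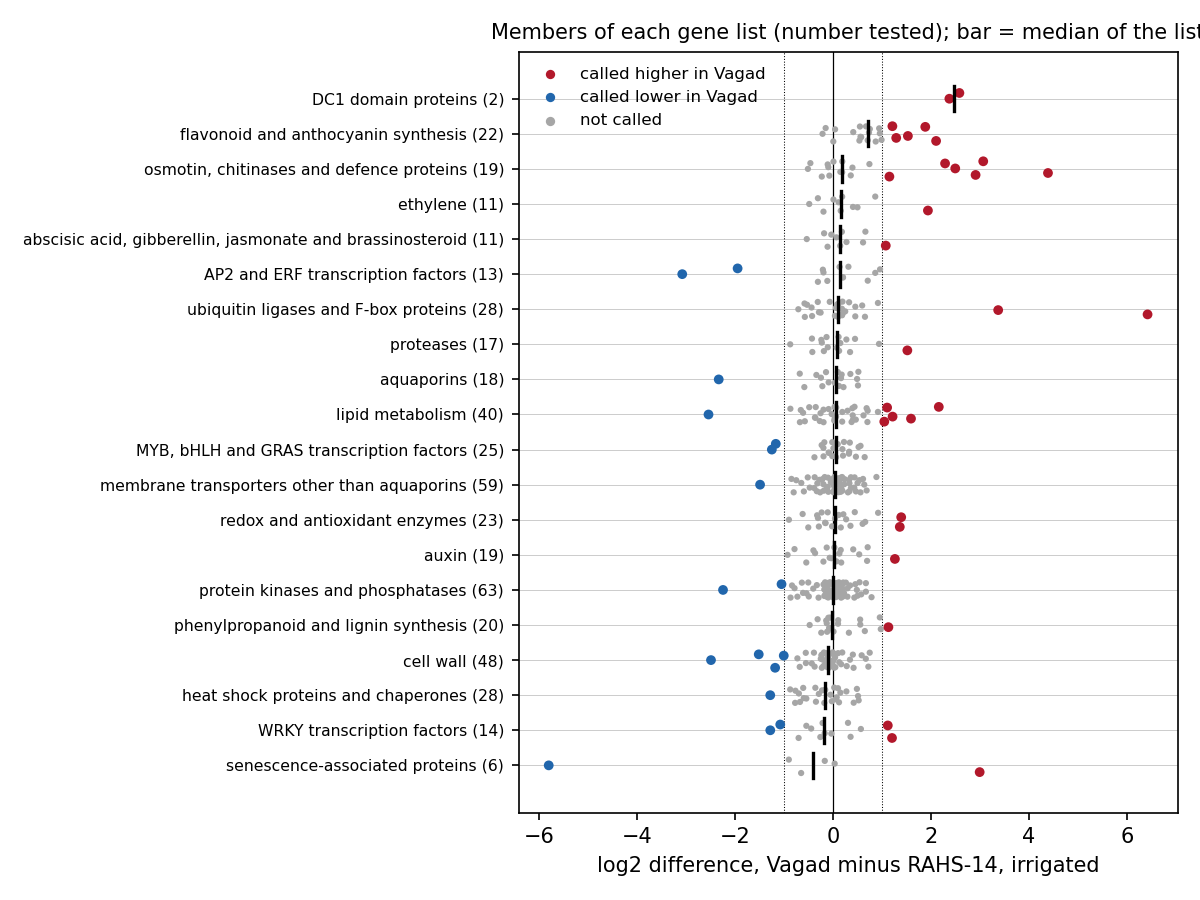
Log2 difference, Vagad minus RAHS-14 (horizontal axis), of every tested member of the 20 gene lists with a called member, 1 point per probe set, with the number tested in parentheses, a bar at the list's median and dotted lines at a fold of 2. Of the 22 flavonoid members 20 lie above 0, with a median of 0.72, while the medians of the cell wall and lipid lists are -0.09 and 0.07.

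Of 18 tested aquaporins 1 was lower and 0 higher in Vagad, 5.56% against 3.67% of all and 7.97% of the named ones. The list median was 0.07. A plasma membrane intrinsic protein (GraAffx.9255.1.S1_x_at), a water channel of the cell membrane, had a log2 signal of 7.07, 6.80 and 6.16 in Vagad, against 8.74, 9.13 and 9.15 in RAHS-14. Its difference was -2.33 (standard error 0.24, adjusted p = 0.00161). The other 17 lay between -0.67 and 0.52, plasma membrane and tonoplast forms alike. Of 59 other transporters 1 was called, 1.69%. This nitrate transporter (GhiAffx.58791.1.A1_at) was lower by 1.48 in Vagad (standard error 0.10, adjusted p = 3.11e-04), with 6.32, 6.29 and 6.50 in Vagad, against 7.88, 7.97 and 7.71 in RAHS-14. A gene of pantothenate synthesis, 3-methyl-2-oxobutanoate hydroxymethyltransferase (Ghi.2241.2.A1_at), lay at the floor of 3.29 in all 3 Vagad plants and had 7.59, 7.80 and 7.85 in RAHS-14 plants. It was at least 21.9-fold lower in Vagad. It entered the test through the RAHS-14 arrays alone, and since the Vagad values are all the floor, with no spread, no p is given.

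Transcription factors were called in both directions. Of 13 tested AP2 and ERF factors 2 were lower in Vagad and 0 higher, 15.4% against 3.67% of all. Both entered the test through the RAHS-14 arrays alone, and 0 were called lower when any 1 RAHS-14 plant was left out. REDOX RESPONSIVE TRANSCRIPTION FACTOR 1 (Ghi.9720.1.S1_at), a factor of the ERF family that responds to light stress in Arabidopsis, had a log2 signal of 3.29, 3.29 and 3.50 in Vagad, against 6.38, 6.27 and 6.65 in RAHS-14. The difference of -3.07 and its standard error of 0.12 depend on the floor, at which 2 Vagad plants lay. An AP2 domain factor (Ghi.3673.1.S1_at) had 3.81, 4.72 and 4.80 in Vagad, against 6.55, 6.23 and 6.39 in RAHS-14. Its difference was -1.94 (standard error 0.27). ALFIN-LIKE 2 (Ghi.7720.1.S1_at), which binds methylated histones, was lower by 1.64 in Vagad, with 6.41, 6.58 and 6.40 in Vagad, against 7.98, 8.24 and 8.08 in RAHS-14. A transcription activator without a further name (GhiAffx.58305.1.S1_s_at) had 7.91, 7.81 and 7.92 in Vagad, against 9.71, 9.68 and 9.66 in RAHS-14, a difference of -1.80.

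Of 14 tested WRKY factors 2 were higher and 2 lower, 28.6% against 3.67% of all, with a median of -0.19. Of the 14, 8 came from the study's lists for droughted plants alone, where 12.1% of tested probe sets were called. WRKY51 (Ghi.3139.1.A1_at) had a log2 signal of 7.33, 7.36 and 7.41 in Vagad, against 5.76, 6.56 and 6.17 in RAHS-14, a difference of 1.21 (adjusted p = 0.00896). WRKY40 (Ghi.9568.1.S1_at), a repressor of defence genes in Arabidopsis, had 7.46, 7.26 and 7.64 in Vagad, against 6.46, 6.68 and 5.86 in RAHS-14, a difference of 1.12 (adjusted p = 0.0184). A second probe set named WRKY40 (Ghi.10061.1.S1_s_at) differed by -0.21 and was not called. WRKY70 (Ghi.9193.2.S1_s_at), which joins salicylate and jasmonate signalling in Arabidopsis, was lower by 1.28 in Vagad (adjusted p = 0.00822), with a second probe set of the gene at -0.70, and WRKY48 (Ghi.3193.2.A1_at) by 1.07 (adjusted p = 0.00118). The WRKY40 call was lost without Vagad plant 1 or 3 or RAHS-14 plant 1 or 3, and that of WRKY48 without Vagad plant 1. Among 25 MYB, bHLH and GRAS factors 2 were lower and 0 higher, 8% against 3.67% of all and 7.97% of the named ones. PHYTOCHROME INTERACTING FACTOR 3 (GhiAffx.5109.1.S1_at), a bHLH factor of light signalling, was lower by 1.16 in Vagad (adjusted p = 0.00744). A bHLH family member (GhiAffx.18998.1.A1_at, difference -1.24) was lost without any 1 plant other than Vagad plant 1. Of 63 protein kinases and phosphatases 2 were lower and 0 higher, 3.17% against 3.67% of all. A leucine-rich repeat kinase (GhiAffx.7472.1.A1_at), of a family that includes many receptors, had 7.45, 6.74 and 6.55 in Vagad, against 8.82, 9.29 and 9.35 in RAHS-14, a difference of -2.24 (standard error 0.26, adjusted p = 0.00242). The other kinase (GhiAffx.64141.1.A1_at) was lower by 1.05 and was lost without Vagad plant 1. It entered the test through the RAHS-14 arrays alone.

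In 15 tested probe sets of osmolyte synthesis and 8 of dehydration and cold proteins limma called 0, where 3.67% of all probe sets tested were called, as it did in 26 of calcium signalling, 11 of photosynthesis and chlorophyll, 21 of glycolysis, starch and sucrose, 11 of ribosomes and translation, 13 of sulfur and methionine metabolism and 5 of terpene synthesis. Over all 11 lists without a call, 124 probe sets, 53 (42.7%) had an unadjusted p under 0.05, as did 31.8% of all probe sets tested, 1 of the 53 with a fold of 2, and the methods' t-test at that fold called 0. At an adjusted p under 0.05 and any fold, 4 osmolyte probe sets were higher and 2 lower of 15, where 15.2% of all passed. The lowest of them, a galactinol-sucrose galactosyltransferase (GhiAffx.16092.1.A1_s_at), which makes raffinose, had 8.99, 8.95 and 8.99 in Vagad, against 9.94, 10.13 and 9.73 in RAHS-14. Its difference of -0.95 (adjusted p = 0.00303) was under a fold of 2. Of 28 heat shock proteins and chaperones 1 was lower, 3.57% against 3.67% of all. This unfolded protein binding member (Ghi.6899.1.A1_at) differed by -1.28, with 7.88, 7.77 and 7.55 in Vagad, against 9.06, 9.0 and 8.97 in RAHS-14.

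Asparagine synthase, which stores nitrogen as asparagine, had 5 tested probe sets with differences of 0.04 to 0.71, none called. L-asparaginase, which breaks asparagine down, had 2 tested probe sets. One (Gra.2835.2.S1_s_at) differed by -0.92, and the other (Ghi.10091.1.A1_s_at) differed by -0.90 (standard error 0.08, adjusted p = 9.98e-04), with 11.35, 11.50 and 11.53 in Vagad, against 12.33, 12.36 and 12.39 in RAHS-14. Neither reached a fold of 2, though the plants of the accessions did not overlap in the second. Glyceraldehyde-3-phosphate dehydrogenase, of glycolysis and carbon fixation, had 3 tested probe sets, at -0.63, -0.11 and 1.67, none called. The highest (Gra.2029.1.S1_s_at) had 6.38, 6.56 and 6.61 in Vagad, against 5.45, 3.29 and 5.78 in RAHS-14, where 1 plant lay at the floor, and its adjusted p was 0.117. Chlorophyllide a oxygenase (Ghi.834.1.A1_at), which makes chlorophyll b, differed by 0.96 (adjusted p = 0.00609), just under a fold of 2.

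The most different probe sets carry no name. Those given here by identifier entered the test through the arrays of 1 accession alone, the one in which they were high. Ghi.482.1.A1_s_at had a log2 signal of 13.10, 13.04 and 13.20 in Vagad, against 5.01, 4.43 and 5.28 in RAHS-14. Its difference was 8.21 (standard error 0.21). Ghi.585.1.S1_s_at had 10.62, 10.61 and 10.67 in Vagad and lay at the floor in all 3 RAHS-14 plants, at least 162-fold higher in Vagad. In the other direction, Ghi.2844.1.S1_s_at had 4.68, 4.08 and 3.74 in Vagad, against 10.07, 9.95 and 9.89 in RAHS-14, a difference of -5.80. Ghi.904.1.S1_s_at was at the floor in all 3 Vagad plants and had 8.97, 8.81 and 8.88 in RAHS-14, at least 48.4-fold lower in Vagad. In all, 2 probe sets were at the floor in every RAHS-14 plant and above the array median in every Vagad plant. There were 4 in the reverse case, at least 10.5-fold to 48.4-fold lower in Vagad. Of 669 clusters with 2 or more tested probe sets, 45 had a called member and 11 had 2 or more, which ran the same way in 10 of the 11. Of 146 functional names with 2 or more tested, 22 had a called member and 4 had 2 or more, which ran the same way in all 4.

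The droughted plants, which had no part in the test, were read on the same scale. The first 2 droughted Vagad arrays were unlike the other 10, with median signals of 322 and 345 against 60.8 to 74.2, so each Vagad plant was set alone against the mean of the 3 RAHS-14 drought plants. Vagad drought plant 3 had the highest 3′ to 5′ log2 ratio of the series, 3.54, against 2.58 to 2.71 in droughted RAHS-14. The part of this ratio in the shares below was not tested. In Vagad drought plant 3, 141 of the 231 probe sets called higher under irrigation (61.0%) were above the RAHS-14 mean, as were 51.8% of all probe sets tested. Of the 217 called lower 135 (62.2%) were below it, as were 48.1% of all. In plants 1 and 2 the shares were 52.8% and 42.4% of those called higher, against 37.2% and 32.2% of all, and 70.5% and 69.6% of those called lower, against 62.8% and 67.8% of all.

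BIG BROTHER kept its order in the droughted plants, with 6.38, 6.72 and 9.99 in Vagad, against 5.01, 5.57 and 4.78 in RAHS-14. The senescence-associated Ghi.743.1.S1_at had 4.10, 7.80 and 4.26 in droughted Vagad, against 11.17, 11.01 and 11.12 in droughted RAHS-14. The DC1 protein Ghi.787.3.S1_s_at had 10.55, 10.07 and 10.84 in droughted Vagad, all above the 9.62, 9.52 and 9.51 of droughted RAHS-14. Osmotin did not keep its order, with 9.30, 7.07 and 7.29 in droughted Vagad, against 9.0, 8.82 and 9.07 in droughted RAHS-14. The high osmotin signal was seen in the irrigated Vagad plants and in none of the other 9. The unnamed Ghi.482.1.A1_s_at had 12.23, 12.47 and 12.92 in droughted Vagad, against 11.41, 11.32 and 11.26 in droughted RAHS-14, where irrigated RAHS-14 had been near the floor. REDOX RESPONSIVE TRANSCRIPTION FACTOR 1 lay at the floor in all 3 droughted RAHS-14 plants.

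**Figure D4:**
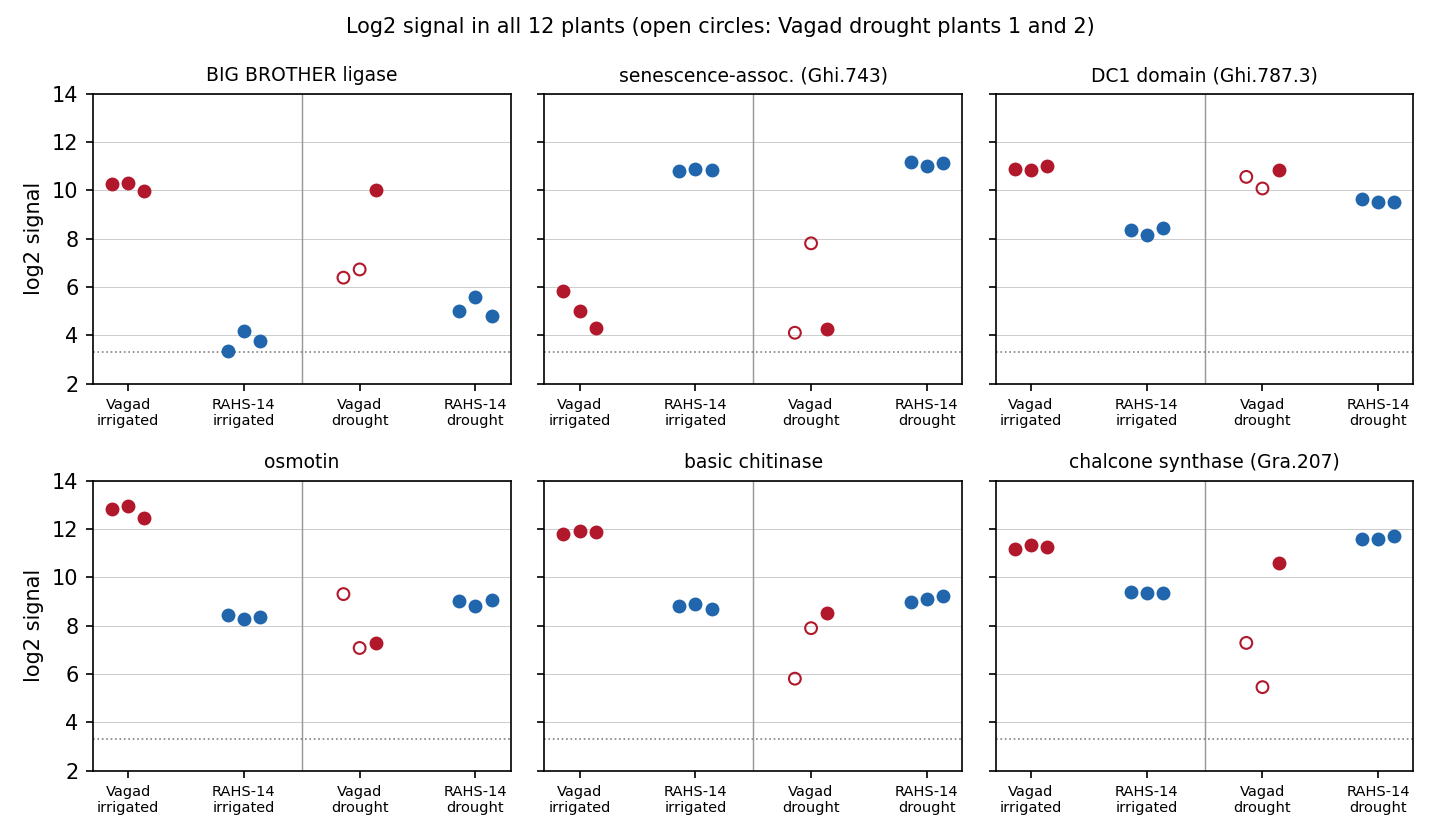
Log2 signal (vertical axis) of 6 probe sets in all 12 plants, 1 circle per plant, with Vagad in red and RAHS-14 in blue, irrigated plants left of the line and droughted plants right of it, open circles for Vagad drought plants 1 and 2 and a dotted line at the floor of 3.29. BIG BROTHER, the senescence-associated protein and the DC1 protein have the same order of accessions under both conditions, whereas for osmotin, chitinase and chalcone synthase all 3 Vagad plants lie above all 3 RAHS-14 plants under irrigation and not under drought.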

How the data were processed

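Signal intensities were deposited by the authors as MAS5 signals, a linear intensity per probe set made with GCOS and scaled to a common trimmed mean on each array, without detection calls. Control probe sets were left out, and 24029 remained. Signals of the 6 irrigated arrays were quantile normalized, raised to a floor of 9.79 (the median over arrays of the 20th percentile) and taken to log2. Probe sets above the array median on at least 3 arrays were tested with limma 3.58.1 in R 4.3.3 (2 groups, no covariate), with Benjamini-Hochberg adjustment over 12211 probe sets. The number of arrays, 3 per group, limits the precision, and an exact permutation test of a single value could not go below p = 0.1. Where a probe set lay at the floor throughout a group, the fold is a bound. The drought arrays were mapped to the irrigated quantiles for description only. The study's methods filtered RMA values and used a t-test, so low signals can differ from theirs.

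Replicate numbers did not pair plants (correlations of deviations -0.020, -0.048 and -0.079). Named probe sets were the 10 largest called differences in each direction with a functional name and no overlap, the 2 largest in each direction without a name, up to 4 called members of each gene list (or, with none called, the member of smallest p), and every tested chalcone synthase, phenylalanine ammonia-lyase, beta-galactosidase, asparagine synthase and glyceraldehyde-3-phosphate dehydrogenase. The members and lists were chosen with earlier results of these data known. Other probe sets named in the text were chosen after their values were seen. Alternatives covered scaling, floor, filter, spread, threshold, block and each plant left out. On simulated arrays with known changes the fit was tested before use. The Vagad drought arrays entered no estimate of spread.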

Additional observations from a re-analysis of the deposited data

Results flagged for a closer look

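In 10 of the 50 called probe sets named by the rule (20%) the accessions stood in the opposite order under drought, with all 3 droughted Vagad plants on the other side of all 3 droughted RAHS-14 plants. The same held for 42 of all 448 called (9.38%). It held for 475 of the 4860 probe sets whose accessions did not overlap under irrigation (9.77%). Those 475 are 3.89% of all 12211 probe sets tested. The difference between the conditions was not tested, and the arrays of Vagad drought plants 1 and 2 were unlike the rest in overall signal. Enzymes of flavonoid synthesis were among them. Vagad minus RAHS-14 under drought was -3.86 on the log2 scale for chalcone synthase Gra.207.1.A1_s_at, -1.78 for Gra.432.1.S1_s_at and -0.48 for Ghi.2516.1.S1_s_at, and -3.64 for coumarate-CoA ligase Ghi.9697.2.S1_s_at, all higher in Vagad under irrigation. It was -4.92 for the jasmonate repressor TIFY10B, -4.72 for the mannose-binding lectin, -1.71 for basic chitinase, -1.57 for aminocyclopropane-1-carboxylate oxidase and -1.22 for PHOSPHOLIPASE A 2A, likewise higher in irrigated Vagad. The nitrate transporter GhiAffx.58791.1.A1_at, lower in irrigated Vagad, was higher in droughted Vagad by 1.35. In Vagad drought plant 3 alone, against the mean of the droughted RAHS-14 plants, the values were smaller for all but 1 of these. They were -1.04, -0.30 and -0.88 for the 3 chalcone synthases, -0.26 for coumarate-CoA ligase, -0.54 for TIFY10B, -1.59 for the lectin, -0.61 for chitinase, -0.41 for the oxidase, -1.03 for the phospholipase and 1.26 for the nitrate transporter, and the one that was not smaller is Ghi.2516.1.S1_s_at.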

How the results depend on the processing

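The number of probe sets called, 448, stayed within 1.5 times of itself under other scalings, floors, tests of spread and an adjusted p under 0.01 (371 to 488). It was 253 (139 higher, 114 lower in Vagad) when a probe set had to exceed the median on all 6 arrays, 1856 (963 and 893) with no minimum fold, and 1088 (563 and 525) at a fold of 1.5. The methods' t-test called 454 unadjusted and 344 after Benjamini-Hochberg adjustment. With 1 plant left out 354 to 407 were called, 154 to 234 higher and 130 to 231 lower. Without RAHS-14 plants 1, 2 and 3 the lower calls were 135, 140 and 130, and fewer probe sets passed the filter then. With the tested probe sets held fixed, an alternative chosen after seeing the data, 404 to 476 were called, 223 to 244 higher and 180 to 232 lower. The replicate number as a block gave 433 (226 and 207), 428 of them shared, and the numbers did not pair plants. Of 50 named calls 41 held in every alternative that tested them, and every shared call kept its direction, but 21 of the 50 went untested in 1 or more settings. With 1 plant left out 15 did so, and 14 of these were called in all 6 such fits on the fixed probe sets. The calls for ubiquitin ligases (2 higher), AP2 and ERF factors (2 lower) and senescence-associated proteins (1 each way) fell to 0 with all 6 arrays required above the median. The other 9 were WRKY40, WRKY48, WRKY51, WRKY70, PHYTOCHROME INTERACTING FACTOR 3, a bHLH factor, a protein kinase, a coumarate-CoA ligase and a hydroxyproline-rich glycoprotein, 6 of them lost when 1 plant was left out. Signals near the floor limit the folds of low probe sets.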

Other observations

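Other groups of names were noticed after their values were seen, and their counts are descriptions. Beside them, 3.67% of all probe sets tested and 7.97% of the named ones were called. Of 5 tested probe sets named for UDP-sugar enzymes 3 were higher in Vagad and 0 lower. The 3 are UDP-glycosyltransferases, a family that attaches sugars to small molecules such as flavonoids, with differences of 1.39, 1.69 and 1.48 on the log2 scale. Nitrate reductase (Gra.718.1.S1_s_at), which makes nitrite from nitrate, had a log2 signal of 7.93, 7.56 and 7.56 in Vagad, against 9.02, 9.09 and 9.11 in RAHS-14. Its difference was -1.39 (standard error 0.12, limma adjusted p = 7.07e-04), and of 5 probe sets with nitrate in the name 2 were lower in Vagad and 0 higher. Both tested mannose-binding lectins were higher, by 2.35 and 2.19. The second (Gra.1498.1.S1_x_at) entered the test through the Vagad arrays alone, with 4.56, 4.01 and 5.04 in RAHS-14.

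In 1 cluster of probe sets called members ran in both directions, between -1.61 and 2.49. Among the 80 called probe sets with a functional name, 19 of the 49 higher ones and 20 of the 31 lower ones kept their sign in Vagad drought plant 3 against the mean of the RAHS-14 drought plants. These are 38.8% and 64.5%, against 51.8% and 48.1% of all probe sets tested that were above and below that mean.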
